A study of Mus musculus with 20 samples.

Results

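The Rab GTPases described here are the 46 genes of the 13225 in the deposited expression table whose symbol is Rab followed by a number and at most 1 letter and 1 further digit, so that their regulators are left out. The GENCODE annotation of the mouse genome (GRCm38) lists 59 coding genes of that form. The other 13, Rab3b, Rab3c, Rab4a, Rab9b, Rab17, Rab25, Rab26, Rab27b, Rab30, Rab33a, Rab38, Rab39b and Rab42, were not analysed here. The libraries were made from polyadenylated RNA of alveolar macrophages, the resident macrophages of the airspaces, which had been sorted by flow cytometry on CD45, SiglecF and CD11c. C57BL/6 wild-type (WT) mice and miR-155 knockout (KO) mice of the strain B6.Cg-Mir155tm1.1Rsky/J, which lack this microRNA in every cell, breathed air or cigarette smoke for 4 weeks, with 5 mice in each of the 4 groups. The knockout is a germline deletion on a related C57BL/6 background, so genotype and any other difference between the strains cannot be told apart, and the age of the mice is not given in the sources used here.

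Rab proteins are small GTPases that mark membranes. Each one is bound to GTP on its own organelle, where it recruits effectors such as motors, tethers and coats, and it is taken off the membrane by a GDP dissociation inhibitor after its GTP has been hydrolysed. In a macrophage a new phagosome carries Rab5 first and exchanges it for Rab7, which brings it to the lysosome, while other Rabs serve secretion, recycling and the Golgi.

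The knockout lacks a microRNA, and its seed is shown because it can be searched for in the Rab transcripts. Mature mmu-miR-155-5p is encoded at chr16:84714143-84714165 on the plus strand (RefSeq sequence, GRCm38.p6), and its seed, bases 2 to 8 from the 5′ end, is in capitals.
mmu-miR-155-5p: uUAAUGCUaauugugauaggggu
A match to the seed in DNA letters reads AGCATTA. Of the 46 Rab genes, 10 (21.7%) hold at least 1 match in their longest annotated 3-prime untranslated region, against 9.14% of the 11282 genes of the table with such a region. The 10 are Rab1a, Rab2b, Rab5c, Rab6a, Rab8b, Rab21, Rab31, Rab35, Rab36 and Rab40b, and in Rab8b and Rab36 the match runs over 8 bases, with the A that stands opposite the first base of the microRNA. Matches of 8 bases were held by 4.35% of the Rab genes and by 3.33% of all genes with such a region. A longer region has more room for a match, and the lengths of the Rab regions were not compared with those of all genes. A match is a description of the letters and not a measured site. The matches of the 4 members that changed with smoke (Rab1a, Rab6a, Rab8b and Rab31) and of the most abundant member (Rab5c) are shown with their surroundings from the GENCODE transcripts, 5′ to 3′ on the gene's strand, with the match in capitals.
Rab1a: tggtggagagtttaAGCATTAgaatag
Rab6a, first match: gtaacaccttttaaAGCATTAgatttc
Rab6a, second match: gagtttatgttgtaAGCATTActtaac
Rab8b: cttaaagacagcagAGCATTAAacaga
Rab31: tgatcacttcacagAGCATTAggagac
Rab5c: gggagagaaaccgcAGCATTActtaag
All 6 stretches lie in the 3-prime untranslated region of their gene. They are at chr11:20226300-20226326 on the plus strand for Rab1a, at chr7:100640193-100640219 and chr7:100640903-100640929 on the plus strand for Rab6a, at chr9:66847316-66847342 on the minus strand for Rab8b, at chr17:65653563-65653589 on the minus strand for Rab31, and at chr11:100715505-100715531 on the minus strand for Rab5c. The levels of these genes in the knockout are given with the genotype comparisons.

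The values are log2 CPM, where CPM is a gene's reads relative to all reads of its library on the usual scale for counts per library. The reads behind them, recovered from the values, sum to between 6885680 and 11952088 per library. A gene without a read has a log2 CPM of -4.58 to -3.78, depending on the library, and 3 reads correspond to 0.251 to 0.436 CPM. The 3 KO air libraries IIIb2, IIIb3 and IIIb4 have 1645, 1524 and 1451 genes without a read, against 259 to 1224 in the other 17. The host transcript of the microRNA, Mir155hg, had 0 to 21 reads per library in WT and 0 to 15 in KO, so its level does not check the genotype labels. Of 17 alveolar macrophage markers 16 were measured, and their summed level was 33540 to 37420 CPM in WT air, 30830 to 37650 in WT smoke, 32110 to 37760 in KO air and 32800 to 37620 in KO smoke. The sorting marker Siglecf fell with smoke by 1.25 on the log2 scale in WT and by 1.15 in KO (limma, adjusted p = 2.25e-08 and 1.41e-07). In all, 3 of these markers rose and 7 fell in WT, and 4 rose and 6 fell in KO. Among those that rose in both were Car4, by 1.52 in WT and 1.09 in KO, Fabp5, by 0.91 and 0.98, and Marco, by 0.79 and 0.54 (log2 scale; limma, adjusted p of 6.09e-13, 6.3e-10, 2.16e-07, 1.14e-07, 0.00042 and 0.0176 in that order). Ptprc, which encodes the sorting marker CD45, fell by 0.69 in WT and 0.30 in KO (limma, adjusted p = 9.25e-08 and 0.00637). Also called lower in both were Ear2, by 1.33 and 1.35, and Krt79, by 1.21 and 0.95. Lpl fell by 0.56 and 0.55 and Fcgr1 by 0.49 and 0.80, likewise called in both. Markers of other cells also moved with smoke. The summed level of the 5 measured neutrophil markers, of 8 listed, was 90.3 to 129 CPM in WT air, 159 to 357 in WT smoke, 86.1 to 134 in KO air and 139 to 314 in KO smoke. Of these 5, 3 rose and 1 fell in each genotype. The 6 measured dendritic cell markers, of 8, summed to 138 to 164, 215 to 364, 121 to 167 and 195 to 226 CPM in the same order of groups. Of these 6, 2 rose and 0 fell in each genotype. The 10 measured monocyte and interstitial macrophage markers, of 14, summed to 637 to 775, 494 to 750, 650 to 898 and 513 to 639 CPM. Of these 10, 4 rose and 3 fell in WT, with a median log2 change of 1.59, and 1 rose and 3 fell in KO, with a median of -0.22. Of 12 cell cycle genes 10 rose with smoke in each genotype, from a sum of 681 to 801 CPM in WT air to 1215 to 1367 in WT smoke. The 9 measured epithelial markers, of 13, summed to 183 to 247, 180 to 232, 193 to 279 and 168 to 208 CPM, and the 2 measured eosinophil markers, of 6, to 72.0 to 82.2, 126 to 193, 71.2 to 123 and 119 to 161 CPM. With smoke 3 epithelial markers rose and 2 fell in WT, and 1 rose and 2 fell in KO. Of the 2 eosinophil markers 1 rose and 1 fell in each genotype. The 2 measured endothelial and stromal markers, of 9, summed to at most 2.87 CPM, and none of the 5 B cell markers was in the table. The listed markers Ly6c2 (monocytes), S100a9 (neutrophils), Cd4 (T cells), Scgb3a2 (airway epithelium) and Kdr (endothelium) had no read in at least 10 libraries each. They are named for that reason, and each was the only measured marker of its list with so few reads. The part of these cells and of cycling in the Rab results was not tested, and in bulk RNA fewer cells of a type and less RNA per cell cannot be told apart.

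Alveolar macrophages expressed most of the family. Over all libraries the mean log2 CPM was 3 or more for 35 of the 46 members, Rab13, Rab23 and Rab34 lay between 1 and 3, and Rab3a, Rab4b, Rab15, Rab36, Rab37, Rab39, Rab40b and Rab43 were under 1. To compare levels between genes, CPM was divided by the length of the longest annotated coding transcript in kilobases. On this scale Rab5c, an early endosome and early phagosome Rab, was highest in WT air at 219 ± 4.39 CPM per kilobase (SD, n = 5), and the late endosome Rab, Rab7, came next at 164 ± 6.35. Rab32, a Rab of lysosome-related organelles, was at 113 ± 7.30 and Rab14, which works between the Golgi and recycling endosomes, at 112 ± 4.68; these 2 did not differ beyond their spread. Rab44 at 101 ± 6.83, Rab1a at 94.4 ± 8.61 and Rab1b at 89.1 ± 5.30 followed, each within the spread of its neighbour. With smoke in WT, Rab5c was at 209 ± 14.1 and Rab7 at 209 ± 6.89, so that these 2 no longer differed beyond their spread, while Rab44 was at 44.7 ± 9.70 CPM per kilobase and in 9th place. At the low end Rab15 had no read in any of the 5 WT air libraries, and Rab3a had 0 to 0.866 CPM per kilobase there.

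**Figure D1:**
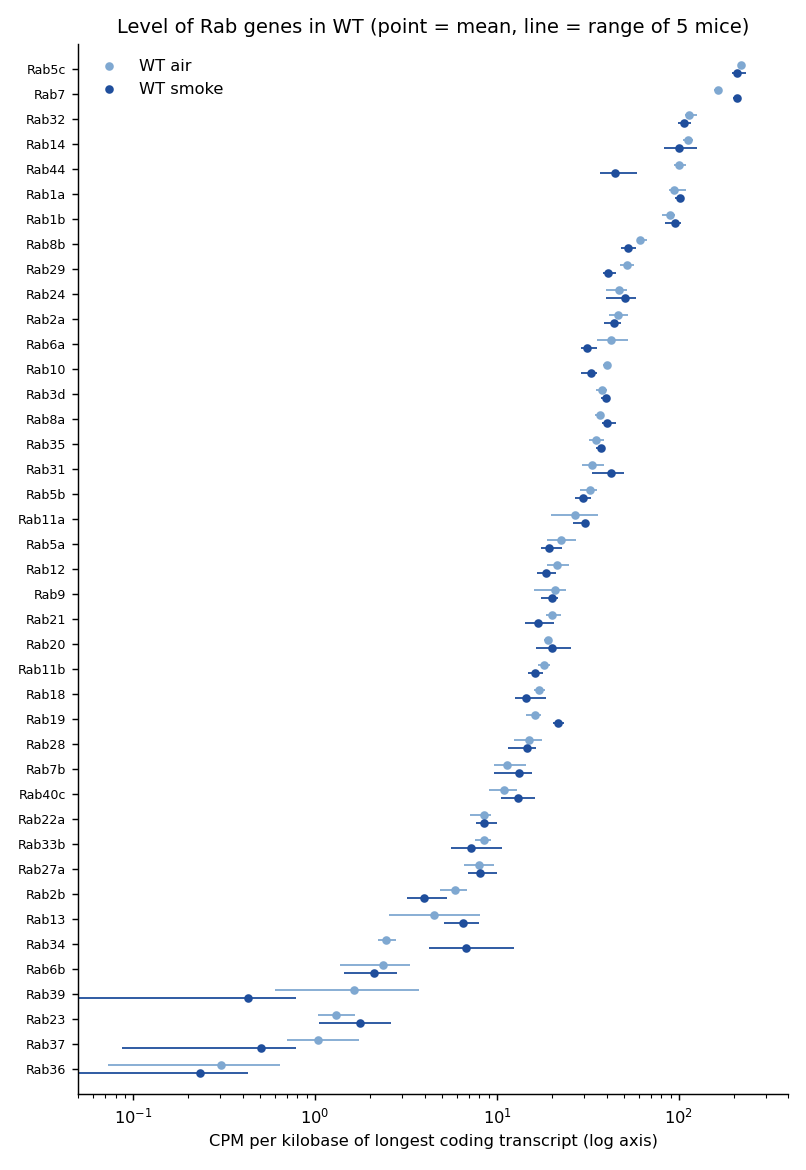
Level of 41 Rab genes in WT mice, in CPM per kilobase of the longest coding transcript on a log axis. Points are means of 5 mice and lines run from the lowest to the highest mouse; a line that reaches the left edge includes a library without a read, and the 5 genes with such a library in WT air are left out. Rab5c and Rab7 lead, and Rab44 shows the widest gap between air and smoke among the abundant members.

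The summed level of the 46 genes was 4474 ± 74.8 CPM in WT air, 4202 ± 156 in WT smoke, 4323 ± 93.7 in KO air and 4220 ± 103 in KO smoke (SD, n = 5 each). Without Rab44 the sums were 4060 ± 82.6, 4019 ± 140, 3856 ± 120 and 3978 ± 104 CPM. Without Rab44 the sums of WT air and WT smoke lie closer together, while those of KO air and KO smoke do not, and their order is turned. Among the 35 members with a mean log2 CPM of 3 or more, the SD between mice of a group, averaged over the groups, was smallest for Rab7 at 0.05 and largest for Rab6b at 0.51, with a median of 0.15. For the 8 members under 1 it was 0.66 to 2.01, so small differences were not detectable there.

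Smoke against air in WT mice asks how the macrophages' Rab genes answer 4 weeks of smoke. Of the 46 genes, 10 changed, 5 higher (Rab7, Rab31, Rab34, Rab19 and Rab15) and 5 lower (Rab44, Rab6a, Rab29, Rab10 and Rab8b). This is 21.7% of the members, while limma called 22.4% of all genes, 9.66% higher and 12.8% lower (adjusted p under 0.05), so the share of Rab genes called was near that of the whole table. The median log2 change of the members was -0.04 against -0.02 for all genes, and their median absolute change was 0.22 against 0.29. In 8 members no WT smoke library overlapped a WT air library, 3 higher and 5 lower, and 18.1% of all genes were separated in this way. In KO mice 6 of the 46 changed with smoke, Rab34, Rab31, Rab7 and Rab1a higher and Rab44 and Rab12 lower. That is 13.0% of the members, beside 15.5% of all genes called in KO (7.05% higher and 8.45% lower). In KO 4 members were separated, beside 9.88% of all genes. Rab7, Rab31, Rab34 and Rab44 changed in both genotypes, in the same direction.

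**Figure D2:**
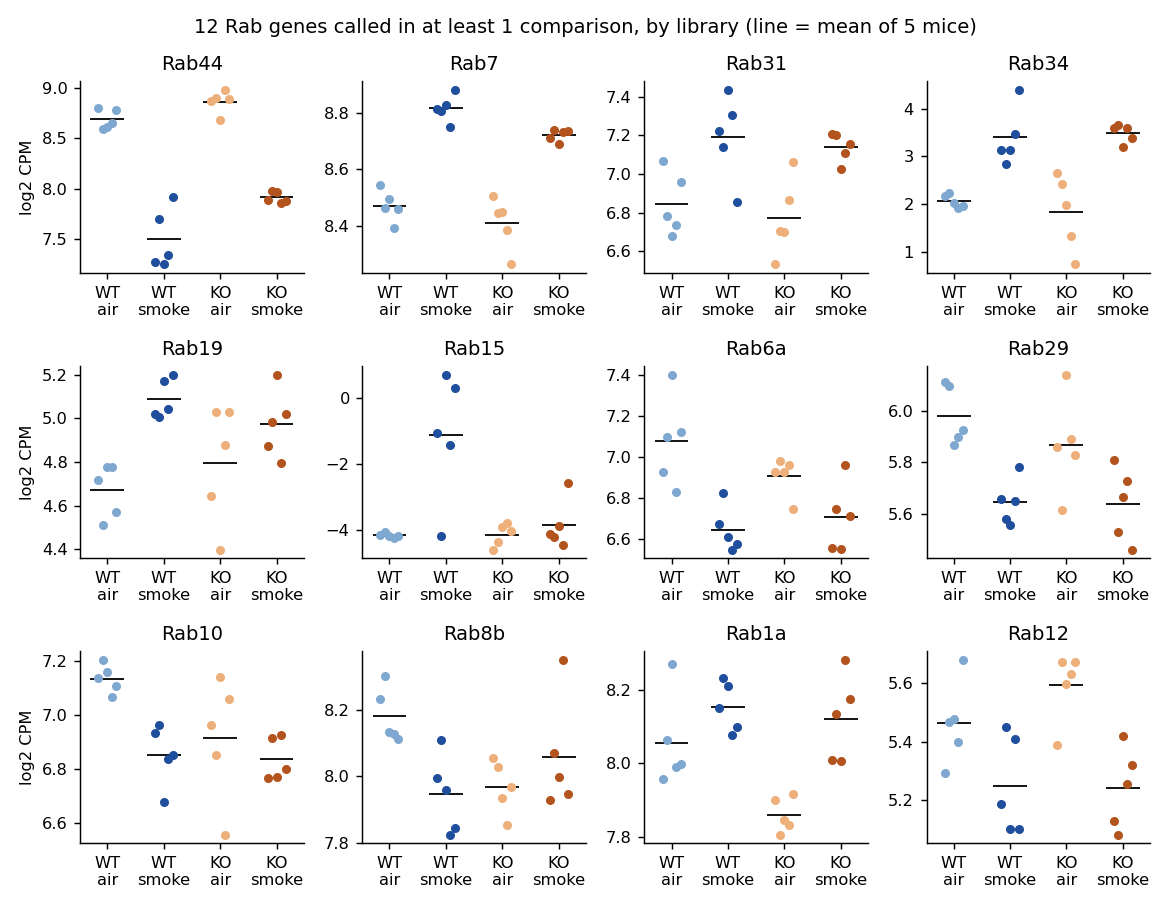
Log2 CPM of the 12 Rab genes called in at least 1 comparison, 1 point for each of the 5 mice of a group and a line at the group mean; each panel has its own axis. In Rab44 and Rab7 every smoke library lies apart from every air library of its genotype, while for Rab15 4 WT smoke mice lie above the level of 0 reads.

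In the late endosome and lysosome class 3 of 9 members changed in each genotype, 2 higher and 1 lower. The lowest p of the class belonged to Rab7 (ENSMUSG00000079477, chr6:87999106-88045270, minus strand), the GTPase that lets phagosomes fuse with lysosomes. Its log2 CPM was 8.54, 8.46, 8.49, 8.39 and 8.46 in WT air and 8.81, 8.81, 8.83, 8.75 and 8.88 in WT smoke. In KO mice it was 8.50, 8.44, 8.45, 8.38 and 8.26 in air and 8.71, 8.74, 8.69, 8.73 and 8.74 in smoke. Every smoke library was above every air library in both genotypes, although the change was small. The log2 change was 0.35 ± 0.05 (SE; 1.27-fold; limma, adjusted p = 1.78e-05) in WT and 0.31 ± 0.05 (1.24-fold; adjusted p = 0.000107) in KO, and the difference between the 2 changes was -0.03 with a 95% interval of -0.19 to 0.12 and an adjusted p of 0.919. A processed copy, Rab7-ps1, is 98.4% identical over 622 bases and had a mean log2 CPM of -0.99; how reads shared by the 2 were counted is not known, and the effect of the copy on Rab7 was not tested. Rab7b, a separate late endosome Rab despite its name, gave 0.21 ± 0.14 in WT (adjusted p = 0.317).

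Rab34 (ENSMUSG00000002059, chr11:78188430-78192193, plus strand), which acts in lysosome positioning, macropinocytosis and phagosome maturation, had the largest increase among members that every library detected. Its log2 CPM was 2.17, 2.24, 2.02, 1.92 and 1.95 in WT air and 3.13, 2.85, 3.14, 3.47 and 4.39 in WT smoke. It was 2.66, 2.43, 1.99, 1.35 and 0.74 in KO air and 3.60, 3.65, 3.20, 3.60 and 3.39 in KO smoke. The groups did not overlap in either genotype; in WT 1 smoke mouse stood above the rest and in KO the air mice were spread widely. The log2 change was 1.33 ± 0.34 in WT (2.52-fold; adjusted p = 0.00425) and 1.65 ± 0.34 in KO (3.15-fold; adjusted p = 0.000827). Without the 3 KO air libraries that lack reads for many genes, which include the lowest values, the KO change was 0.94 with an adjusted p of 0.0868.

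Rab31 (ENSMUSG00000056515, chr17:65651729-65772752, minus strand), a relative of Rab5 on early endosomes and the trans-Golgi network that also occurs on phagosomes, rose in both genotypes. Its log2 CPM was 7.07, 6.78, 6.68, 6.74 and 6.96 in WT air and 7.22, 7.14, 7.44, 7.31 and 6.85 in WT smoke. In KO it was 6.53, 6.70, 6.70, 6.86 and 7.06 in air and 7.21, 7.20, 7.03, 7.11 and 7.15 in smoke. The groups overlapped through 1 mouse in each genotype, WT smoke mouse IIb3 and KO air mouse IIIb4. The log2 change was 0.35 ± 0.10 in WT (1.27-fold; adjusted p = 0.0105) and 0.37 ± 0.10 in KO (1.29-fold; adjusted p = 0.00986). The other 6 early endosome Rabs (Rab5a, Rab5b, Rab5c, Rab20, Rab21 and Rab22a) were not called in either genotype, with log2 changes between -0.26 and 0.06 in WT and between -0.13 and 0.35 in KO. Rab21 gave -0.26 ± 0.10 in WT (limma, adjusted p = 0.055). It passed the threshold in a fit of the compared groups alone (adjusted p = 0.0458) and without WT smoke IIa5 (0.0116), among other alternatives. In this class the most abundant member, Rab5c, gave -0.07 ± 0.06 in WT (adjusted p = 0.476) and -0.09 ± 0.06 in KO (adjusted p = 0.372).

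The upstream sequence of the 3 genes that rose in both genotypes is shown because they moved together. RefSeq promoters (GRCm38.p6) were given for 40 of the 46 members. Each stretch is the 250 bases before the first annotated start, 5′ to 3′ on the gene's strand, at chr6:88045271-88045520 on the minus strand for Rab7, chr17:65772753-65773002 on the minus strand for Rab31 and chr11:78188177-78188426 on the plus strand for Rab34. Capitals mark the AP-1 motif TGACTCA, read on either strand.
Rab7: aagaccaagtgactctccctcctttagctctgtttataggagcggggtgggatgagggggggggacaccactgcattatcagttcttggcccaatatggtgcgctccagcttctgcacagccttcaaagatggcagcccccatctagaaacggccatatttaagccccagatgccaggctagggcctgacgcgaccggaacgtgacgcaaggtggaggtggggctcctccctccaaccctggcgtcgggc
Rab31: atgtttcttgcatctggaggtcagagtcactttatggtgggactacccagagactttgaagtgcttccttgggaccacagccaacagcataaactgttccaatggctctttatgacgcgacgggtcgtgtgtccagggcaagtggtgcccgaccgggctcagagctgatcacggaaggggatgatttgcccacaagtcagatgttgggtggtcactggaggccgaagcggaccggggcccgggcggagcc
Rab34: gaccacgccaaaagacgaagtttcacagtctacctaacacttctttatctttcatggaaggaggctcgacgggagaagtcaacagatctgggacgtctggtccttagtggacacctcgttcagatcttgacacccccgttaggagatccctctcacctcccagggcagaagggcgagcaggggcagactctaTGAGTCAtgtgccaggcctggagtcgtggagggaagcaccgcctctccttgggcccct
In windows of 300 bases (250 before and 50 after a start), the AP-1 motif was in 3.85% of the 52 Rab windows, those of Rab34 and Rab15, and in 5.20% of the 32851 windows of all genes. The E-box CACGTG, searched on both strands, was in 11.5% of Rab windows, 1 each for Rab5a, Rab20, Rab21, Rab23, Rab24 and Rab27a, and in 7.15% of all. Its longer form TCACGTGA, which contains the E-box, was in 5.77% of Rab windows, those of Rab5a, Rab21 and Rab24, and in 0.974% of all windows. None of these 6 genes was called in any comparison. The antioxidant response core TGACNNNGC, on both strands, was in 15.4% of Rab windows and 12.4% of all, and the 7 genes that hold it are Rab4b, Rab7, Rab8a, Rab8b, Rab22a, Rab24 and Rab43; in Rab7 it stands 65 bases before a second start and outside the stretch shown. The PU.1 motif GAGGAAGT, on both strands, was in windows of Rab2b and Rab32 (3.85% of Rab windows, 3.20% of all). The TATA motif TATAAA, on both strands, was in 1.92% of Rab windows and 13.6% of all, and the only Rab gene that holds it is Rab7, 218 bases before the start and unmarked in the stretch shown.

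Of the class of lysosome-related organelles and regulated secretion, 1 of 6 changed in each genotype, and it was Rab44 (ENSMUSG00000064147, chr17:29114145-29148980, plus strand), an unusually large Rab with EF-hand domains that is known from granule release in mast cells and from osteoclasts. It was among the most abundant Rabs in air, and its p was the lowest of the family in both smoke comparisons. Its log2 CPM was 8.81, 8.60, 8.61, 8.65 and 8.78 in WT air and 7.27, 7.70, 7.25, 7.34 and 7.92 in WT smoke. In KO it was 8.87, 8.91, 8.68, 8.98 and 8.89 in air and 7.89, 7.97, 7.97, 7.86 and 7.88 in smoke. No smoke library reached an air library in either genotype. In linear units the mean was 413 ± 28.0 CPM in WT air and 183 ± 39.8 in WT smoke, and 468 ± 35.3 in KO air and 241 ± 8.67 in KO smoke (SD, n = 5). The level fell by 1.20 ± 0.09 on the log2 scale in WT (limma, adjusted p = 1.24e-10) and by 0.95 ± 0.09 in KO (adjusted p = 1.43e-08). The other 5 of this class, Rab3a, Rab3d, Rab27a, Rab32 and Rab37, were not called; Rab32, which is known for delivering itaconate to pathogen-containing vacuoles, gave -0.08 ± 0.07 in WT (adjusted p = 0.435).

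Of the further members of the late endosome and lysosome class, Rab29, which recruits the kinase LRRK2 to stressed lysosomes and the Golgi, had log2 CPM 6.11, 6.10, 5.87, 5.90 and 5.93 in WT air and 5.66, 5.58, 5.56, 5.65 and 5.78 in WT smoke, with no overlap. It fell by 0.34 ± 0.10 on the log2 scale in WT (limma, adjusted p = 0.0127). In KO the log2 change was -0.23 ± 0.10 with an adjusted p of 0.119. Rab12, which acts in the traffic of receptors to lysosomes, was called in KO, at 5.39, 5.67, 5.60, 5.63 and 5.67 in air and 5.13, 5.08, 5.42, 5.26 and 5.32 in smoke. Its values overlapped through the lowest air mouse. It fell by 0.35 ± 0.11 on the log2 scale (limma, adjusted p = 0.0241), and in WT the log2 change was -0.21 ± 0.11 (adjusted p = 0.167). The KO call for Rab12 was lost without KO air IIIb1 or IIIb4 and without KO smoke IVa2 or IVa4 (adjusted p = 0.0534, 0.0503, 0.0642 and 0.0739), and without the 3 KO air libraries that lack reads for many genes (adjusted p = 0.237). Rab39, which acts in phagosome acidification, was low and variable, at 1.89, 0.89, 3.48, 1.79 and 2.19 log2 CPM in WT air and -0.26, 1.26, 0.80, 0.64 and -4.23 in WT smoke. Its log2 change of -2.41 ± 1.01 was not called (adjusted p = 0.0879), but passed the threshold in a fit of the compared groups alone (adjusted p = 0.0313), with log2 of CPM plus 1 (0.0386) and after quantile normalization (0.0412). In KO its log2 change was -0.06 ± 1.01 (adjusted p = 0.98).

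In the class of the endoplasmic reticulum and Golgi, 2 of 10 members changed in WT and 1 in KO. Rab6a (ENSMUSG00000030704, chr7:100607410-100641268, plus strand), which runs Golgi transport and the route of newly made cytokines to the surface, had log2 CPM 6.93, 7.10, 7.40, 6.83 and 7.12 in WT air and 6.67, 6.83, 6.61, 6.55 and 6.57 in WT smoke. The highest smoke mouse touched the lowest air mouse from below. Rab6a fell by 0.43 ± 0.09 on the log2 scale in WT (limma, adjusted p = 0.000961). In KO it was 6.93, 6.98, 6.93, 6.96 and 6.75 in air and 6.56, 6.75, 6.55, 6.96 and 6.71 in smoke, with overlapping groups and a log2 change of -0.20 ± 0.09 (adjusted p = 0.148). The gene shares 708 exon bases with Mrpl48 on the opposite strand, whose log2 change in WT was 0.02 (adjusted p = 0.956); whether the counting used strand is not given in the sources used here. A processed copy, Gm13082, is 95.3% identical over 557 bases and was not analysed here.

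Rab19, a little studied Rab placed at the Golgi, was at 4.72, 4.51, 4.77, 4.78 and 4.57 log2 CPM in WT air and at 5.02, 5.01, 5.17, 5.04 and 5.20 in WT smoke, without overlap. The log2 change was 0.42 ± 0.13 in WT (1.34-fold; adjusted p = 0.0195), and the call was lost without WT air mouse Ia4 (0.38, adjusted p = 0.0541). In KO the log2 change was 0.18 ± 0.13 (adjusted p = 0.399). Rab1a, the Rab of transport from the endoplasmic reticulum to the Golgi, was called in KO, at 7.90, 7.81, 7.84, 7.83 and 7.92 in air and 8.01, 8.13, 8.0, 8.28 and 8.17 in smoke. Every KO smoke mouse was above every KO air mouse, and the log2 change was 0.26 ± 0.07 (1.20-fold; adjusted p = 0.00586). Without the 3 KO air libraries that lack reads for many genes it was 0.27 with an adjusted p of 0.0576. In WT, Rab1a gave 0.10 ± 0.07 (adjusted p = 0.317), and the difference between the genotypes' changes was 0.16 with a 95% interval of -0.03 to 0.35 (adjusted p = 0.593). Rab2b, a Golgi Rab, gave -0.57 ± 0.22 in WT (adjusted p = 0.0671) and -0.61 ± 0.22 in KO (adjusted p = 0.0653) and was not called. It passed the threshold in WT when genes whose mean log2 CPM is under 1 were left out (adjusted p = 0.0462), with voom weights (0.0366) and in a fit of the compared groups alone (0.029), and in KO with the first 2 of these settings (0.0443 and 0.048).

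Of the 4 Rabs of exocytosis at the plasma membrane, Rab10 and Rab8b fell in WT and none was called in KO. Rab10, which carries receptors such as TLR4 to the surface, had log2 CPM 7.14, 7.20, 7.16, 7.07 and 7.11 in WT air and 6.93, 6.96, 6.68, 6.84 and 6.85 in WT smoke, without overlap. It fell by 0.28 ± 0.09 on the log2 scale (limma, adjusted p = 0.0156), and the call was lost without WT smoke mouse IIb1 (adjusted p = 0.0598). Rab8b, a Rab of polarised secretion, was at 8.23, 8.30, 8.13, 8.13 and 8.11 in WT air and at 7.99, 8.11, 7.96, 7.82 and 7.84 in WT smoke, where the highest smoke mouse came just below the lowest air mouse. It fell by 0.24 ± 0.07 on the log2 scale (limma, adjusted p = 0.0205). Without WT air Ia4, WT smoke IIb2 or WT smoke IIb3 the adjusted p for Rab8b was 0.0662, 0.0683 and 0.0577. Rab10 shares 143 exon bases with its antisense gene Rab10os, for which the log2 change in WT was 0.02 (adjusted p = 0.967). The copy Gm20689 is identical to Rab8b over 279 bases and was not analysed here.

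Among 6 Rabs of recycling endosomes, Rab15, which slows recycling of the transferrin receptor, was the only one called, and it rests on few reads. The 5 WT air libraries together held 0 reads and the 5 WT smoke libraries 33, which is at least 10.2-fold higher when 3 reads over the group are taken as the limit that a count of 0 allows. In WT smoke the log2 CPM was -1.05, -4.17, 0.71, -1.41 and 0.30, so 4 mice had reads and IIa5 had none. KO mice held 0 reads in air and 1 in smoke. The fitted change had an adjusted p of 0.0283 in WT and of 0.897 in KO, and the difference between the genotypes' changes had an adjusted p of 0.541. The WT call was lost without WT smoke IIa1, IIb1 or IIb3 (adjusted p = 0.0521, 0.0948 and 0.0796). Of 9 listed T and NK cell markers 2 were measured, Il7r and Cd4, and Cd4 had no read in at least 10 libraries. Together they summed to 0.571 to 1.71 CPM in WT air and 7.47 to 41.2 in WT smoke. In KO they summed to 0 to 1.26 CPM in air and 0.642 to 6.08 in smoke. The part of such cells in the Rab15 reads was not tested. The abundant recycling Rabs Rab11a and Rab14 were not called in either genotype, and Rab14 gave -0.17 ± 0.08 in WT (adjusted p = 0.137) and 0.13 ± 0.08 in KO (adjusted p = 0.32).

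The remaining 4 members, Rab23, Rab28, Rab40b and Rab40c, of ciliary or little studied roles, were not called in either genotype. Over all members that were not called and had a mean log2 CPM of 3 or more, the log2 change ran from -0.57 to 0.23 in WT (27 genes) and from -0.76 to 0.35 in KO (30 genes). At an unadjusted p under 0.05 there were 16 of the 46 members in WT and 14 in KO, beside 4364 and 3703 of the 13225 genes.

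**Figure D3:**
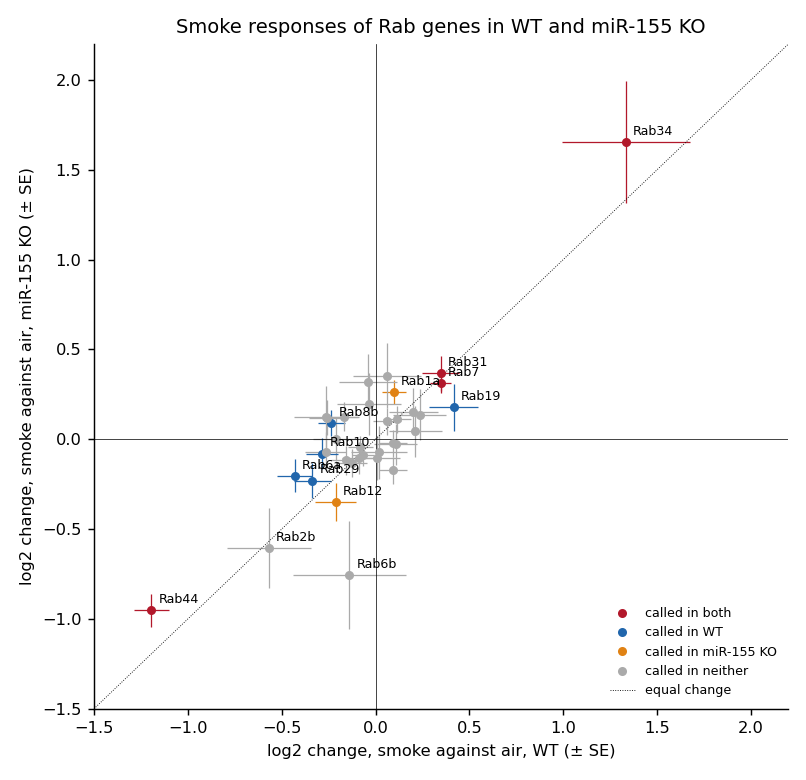
Log2 change with smoke in WT (horizontal) and in miR-155 KO (vertical), with standard errors, for Rab34 and the 35 Rab genes with a mean log2 CPM of 3 or more; the dotted line marks equal change. Rab34, Rab31 and Rab7 lie above 0 on both axes and Rab44 below 0 on both, while Rab8b and Rab10 lie below 0 in WT and close to 0 in KO.

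The question whether the loss of miR-155 alters the smoke response was addressed by the difference of the 2 smoke responses. No Rab gene passed the threshold, and limma called 0.0% of all genes, so no gene of the table stood out either. At an unadjusted p under 0.05 there were 4 of the 46 members and 1302 of the 13225 genes. The lowest adjusted p of a member was 0.303, for Rab8b, whose change was 0.33 higher in KO (95% interval 0.11 to 0.54). A member called in 1 genotype only is thus not shown to respond differently in the other.

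KO was next compared with WT within each exposure. In air no Rab gene was called, and 0.416% of all genes were. At an unadjusted p under 0.05 there were 4 of the 46 members, Rab1a, Rab8b, Rab10 and Rab14, each with a lower mean in KO, beside 1537 of the 13225 genes. Rab1a was at 7.96, 8.06, 8.27, 7.99 and 8.0 in WT air, above every KO air mouse, with a log2 difference of -0.20 ± 0.07 and an adjusted p of 0.203. Rab8b gave -0.21 ± 0.07 (adjusted p = 0.224), Rab10 -0.22 ± 0.09 (adjusted p = 0.295) and Rab14 -0.18 ± 0.08 (adjusted p = 0.376). For Rab8b and Rab14 too, every WT air mouse was above every KO air mouse, while the groups overlapped for Rab10. The share of all genes separated in this way was not counted for this comparison. The WT air libraries enter both this comparison and the smoke comparison in WT, and the KO air libraries likewise, so these values are not independent of the smoke responses above.

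In smoke 1 member was called, Rab44, while 1.58% of all genes were. At an unadjusted p under 0.05 there were 4 of the 46 members and 1786 of the 13225 genes. The Rab44 level in KO smoke, 7.86 to 7.97, was above 4 of the 5 WT smoke mice and within the range of the last, IIb3 at 7.92. The log2 difference was 0.42 ± 0.09 (1.34-fold; limma, adjusted p = 0.0138). The call was lost without WT smoke IIa1, IIb1 or IIb2, the 3 lowest mice, with adjusted p = 0.0605, 0.0726 and 0.0569. In air the log2 difference for Rab44 was 0.18 ± 0.09 (adjusted p = 0.467), and the difference of its smoke responses was 0.24 with a 95% interval of -0.03 to 0.51 (adjusted p = 0.566). Of the 16 measured alveolar macrophage markers 2 (12.5%) were also called between the genotypes in smoke. Mrc1 was higher in KO by 0.26 and Car4 lower by 0.35 (log2 scale, limma, adjusted p = 0.0336 and 0.042). The part of such differences in the Rab44 level was not tested.

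The 10 members with a match to the miR-155 seed were not called in either genotype comparison. In air their log2 differences between KO and WT ran from -1.46 to 0.03 with a median of -0.18, and 1 of the 10 was positive; the other 36 members had a median of -0.03. In smoke they ran from -0.30 to 0.95, 5 of the 10 were positive, and the medians were 0.00 and -0.01. The ends at -1.46 in air and 0.95 in smoke both belonged to Rab36, a gene of few reads with an SE of 1.16 in each comparison. The lowest adjusted p among the 10 was 0.203 in air and 0.310 in smoke. Rab8b, with its match of 8 bases, was at 8.06, 8.03, 7.93, 7.85 and 7.97 in KO air, below the 5 WT air values, and at 7.93, 8.07, 8.0, 8.35 and 7.95 in KO smoke, where it gave 0.11 ± 0.07 against WT smoke (adjusted p = 0.569). Rab14, which holds no match, also lay below its WT air values in every KO air mouse.

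The proteins that load, switch and read Rabs were described from lists of known regulators. Rabggta, a subunit of the transferase that attaches the lipid anchor, fell by 0.76 ± 0.18 on the log2 scale in WT (limma, adjusted p = 0.00199) and by 0.57 ± 0.18 in KO (adjusted p = 0.0267). The KO call for Rabggta was lost without KO air IIIb1 or IIIb4 or KO smoke IVa2 or IVa4, with adjusted p of 0.0507 to 0.0866.

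Guanine nucleotide exchange factors load GTP and so switch Rabs on. Of the 33 measured, of 34 listed, 15 changed with smoke in WT, 3 higher and 12 lower, and 10 in KO, 2 higher and 8 lower. That is 45.5% and 30.3% of the list, beside 22.4% and 15.5% of all genes, and the medians were -0.17 and -0.12 against -0.02 and -0.01 for all genes; without the 3 KO air libraries that lack reads for many genes the KO count was 5. The Rab5 exchange factors Rin3 and Gapvd1 fell by 0.42 ± 0.06 and 0.35 ± 0.06 on the log2 scale in WT (limma, adjusted p = 6.15e-06 and 0.0001). Gapvd1 also fell in KO, by 0.23 ± 0.06 (limma, adjusted p = 0.00994). Dennd4b, an exchange factor of Rab10, fell by 0.41 ± 0.07 in WT and by 0.54 ± 0.07 in KO (adjusted p = 4.53e-05 and 1.53e-06). Dennd1c, of the same DENN domain family, fell by 0.33 ± 0.09 in WT and by 0.37 ± 0.09 in KO (limma, adjusted p = 0.00713 and 0.00448). Among those that rose was Rab3il1, an exchange factor of Rab8 proteins, by 0.64 ± 0.14 in WT (adjusted p = 0.00127). Dennd2a rose by 0.50 ± 0.12 in WT and by 0.51 ± 0.12 in KO (limma, adjusted p = 0.00239 and 0.00345). In KO Rin3 fell by 0.26 ± 0.06 (adjusted p = 0.0026, and 0.0526 without the 3 KO air libraries), and it was also higher in KO than in WT in smoke, by 0.27 ± 0.06 (adjusted p = 0.0131, and 0.0656 without WT smoke IIb1). The difference between its 2 smoke responses was not called.

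GTPase activating proteins end the signal by speeding hydrolysis of GTP. Of 35 measured, of 37 listed, 3 rose and 5 fell in WT, and 4 rose and 4 fell in KO (22.9% of the list in each, beside 22.4% of all genes in WT and 15.5% in KO); without the 3 KO air libraries the KO count was 4. Tbc1d2, also called Armus, which acts on Rab7, rose by 0.90 ± 0.10 on the log2 scale in WT and by 1.04 ± 0.10 in KO (limma, adjusted p = 1.36e-07 and 1.53e-08). Tbc1d22a rose by 0.48 ± 0.08 and 0.41 ± 0.08 (adjusted p = 4.83e-05 and 0.000497). The TBC domain proteins Tbc1d2b and Tbc1d9 fell in WT by 0.62 ± 0.11 and 0.44 ± 0.08 (adjusted p = 0.000114 and 0.000172), and in KO by 0.42 ± 0.11 and 0.34 ± 0.08 (adjusted p = 0.00823 and 0.00422); the KO call for Tbc1d2b was lost without the 3 KO air libraries (adjusted p = 0.0531).

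Effectors bind GTP-loaded Rabs and do the work of transport. Of 37 measured, of 42 listed and with Rab3il1 in this list too, 5 rose and 6 fell in WT (29.7%), and 7 rose and 6 fell in KO (35.1%), beside 22.4% and 15.5% of all genes; without the 3 KO air libraries the KO count was 7. Myo5a, the myosin motor that Rab27a and other Rabs recruit, rose by 1.19 ± 0.09 on the log2 scale in WT and by 1.53 ± 0.09 in KO (limma, adjusted p = 9.97e-11 and 7.72e-13). Mlph, the adaptor between Rab27a and that motor, rose by 1.48 ± 0.21 in WT and by 1.08 ± 0.21 in KO (limma, adjusted p = 4.52e-06 and 0.000426). Rab27a itself gave 0.02 ± 0.15 in WT (adjusted p = 0.957). Plin3, a lipid droplet protein that binds Rab9, rose by 0.41 ± 0.09 in WT and by 0.52 ± 0.09 in KO (limma, adjusted p = 0.000867 and 8.02e-05). Rab11fip1, which links Rab11 to recycling, fell by 0.82 ± 0.11 in WT and 0.66 ± 0.11 in KO (adjusted p = 2.08e-06 and 7.33e-05), and the kinase Lrrk1, which phosphorylates Rab7, fell by 0.71 ± 0.08 and 0.58 ± 0.08 (adjusted p = 1.83e-07 and 9.14e-06). The only effector called between genotypes was Myrip, an adaptor of Rab27a, lower in KO than in WT air (adjusted p = 0.0233); its mean log2 CPM was 1.21 in WT air and -3.35 in KO air, and the call was lost without WT air Ia3, Ia4 or Ib2 or KO air IIIb3 or IIIb4, with adjusted p of 0.0542 to 0.0732.

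The HOPS and CORVET complexes tether endosomes and lysosomes as effectors of Rab7 and Rab5. None of their 10 subunits was called by limma in either genotype, with medians of 0.10 in WT and 0.01 in KO; at an unadjusted p under 0.05 there were 2 and 1, and 1 subunit was called in WT after quantile normalization. Of 19 measured Rab-like proteins and other small GTPases of traffic, of 20 listed, 3 rose and 1 fell in WT (21.1%) and 1 rose in KO (5.26%), beside the same 22.4% and 15.5%. Arl8b, the lysosomal GTPase that works with HOPS, rose by 0.57 ± 0.09 on the log2 scale in WT and by 0.60 ± 0.09 in KO (limma, adjusted p = 1.28e-05 and 1.08e-05). Ran, the GTPase of nuclear transport, rose by 0.47 ± 0.08 in WT (adjusted p = 8.68e-05). The WT calls for Rap1b (-0.24 ± 0.08, adjusted p = 0.0356) and Rabl3 (0.74 ± 0.26, adjusted p = 0.039) were less stable. The first was lost without WT air Ia3, Ia4, Ib1 or Ib2 or WT smoke IIb1, IIb2 or IIb3 (adjusted p of 0.0503 to 0.119), and the second without WT air Ia3, Ia4 or Ib1 or WT smoke IIa1, IIa5, IIb2 or IIb3 (adjusted p of 0.0522 to 0.11).

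**Figure D4:**
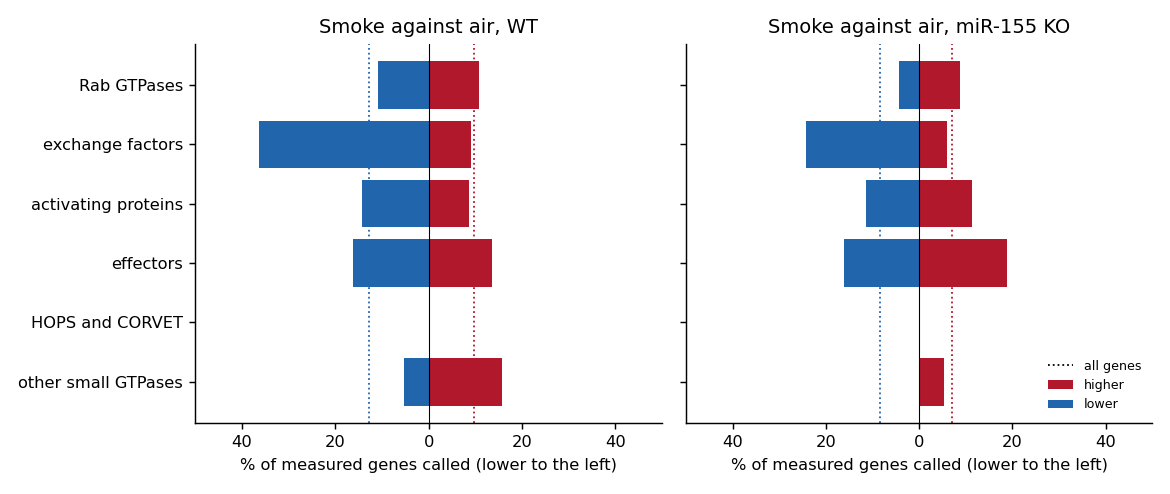
Share of the measured genes called higher (right of 0) and lower (left of 0) with smoke, for the Rab GTPases and 5 lists of genes that act on or with them, in WT and in miR-155 KO; dotted lines give the share of all genes in each direction. The Rab GTPases lie near the dotted lines in WT, the exchange factors reach past the line for lower genes in both genotypes, and the HOPS and CORVET subunits have no call.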

How the data were processed

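RNA of sorted alveolar macrophages from 20 mice was sequenced after polyA selection from 25 ng. The authors deposited 1 table of log2 CPM for 13225 genes; per the submitters' processing notes STAR 2.6.0c, limma and GRCm38.p6 were used; for the counting tool and strand setting no source here gives a name. The deposited log2 values follow the voom formula, with 0.5 added to each count and 1 to the total, so whole reads could be recovered for 100% of values (tolerance 0.001) and gave library totals of 6885680 to 11952088. Per group means of all genes were fitted with limma 3.58.1 in R 4.3.3 (empirical Bayes with trend), p-values were adjusted by Benjamini and Hochberg over all genes, and genes with an adjusted p under 0.05 are called; the 4 groups share 1 estimate of the spread. The script was tested on simulated data. Each library is a different mouse and no label pairs mice across groups. Litter, cage and sequencing batch are not labelled, so p-values measure the spread between these mice and cannot separate such groupings.

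Named were all called Rab genes, those at the ends of the level range, and up to 4 called genes of smallest p in each list of regulators and comparison. The members, lists and tests were chosen with earlier results of these data known. Sequence matches came from GENCODE M21 and RefSeq (GRCm38.p6), and copies of at least 95% identity over 200 bases from blastn 2.17.0. Alternatives were quantile normalization, median centring, a mean log2 CPM of at least 1, log2 of CPM plus 1, voom weights, only the compared groups, and leaving out libraries. The counts of 1 list of regulators are not reported here.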

Additional observations from a re-analysis of the deposited data

Results flagged for a closer look

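Among the 12 called Rab genes, each group of 5 mice was checked for a mouse that stands apart, by its gap to the nearest other relative to the group's range. Of 48 such groups 2 stood out, and chance gives about 1 in 20. In KO air the Rab6a level of mouse IIIb4 was 6.75 log2 CPM, below the other 4 at 6.93 to 6.98. Also in KO air, the Rab12 level of mouse IIIa5 was 5.39 log2 CPM, below the other 4 at 5.60 to 5.67. Both mice lie on the side of the smoke values, so each makes the KO difference of its gene smaller.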

How the results depend on the processing

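The number of Rab genes called with smoke in WT was 10, and 9 to 14 under 7 other settings. In KO it was 6, but 3 without KO air IIIb2, IIIb3 and IIIb4, which leaves 2 mice in that group; Rab34 (0.94, adjusted p = 0.0868), Rab1a (0.27, adjusted p = 0.0576) and Rab12 (-0.29, adjusted p = 0.237) were lost there. For KO against WT in smoke, leaving out 1 library at a time gave 0 to 2 calls, beside 1. Both counts of 0 (KO against WT in air, difference of the smoke responses) stayed at 0 in every alternative run, voom weights included. Leaving out each of the 20 libraries gave 8 to 14 calls in WT and 5 to 8 in KO. The 14 WT calls were 5 higher and 9 lower, both without WT smoke IIa5 and with only the compared groups. Rab2b, Rab18 and Rab21 were gained as lower in both of these fits. The balance of 5 higher and 5 lower in WT thus depended on the setting. Of 17 called results of single genes 9 kept their direction and call in every alternative, and 0 changed direction. Quantile normalization ended the WT calls of Rab8b (adjusted p = 0.0911), Rab10 (0.0782) and Rab15 (0.0627) and the KO call of Rab12 (0.0569), and a fit of the KO groups alone ended that of Rab12 (0.053); the cause was not tested. With log2 of CPM plus 1 the Rab15 change was 0.68. No paired analysis was possible because each library is a different mouse with a code of its own. Depth limits the 8 members under a mean log2 CPM of 1.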
